A study of Homo sapiens with 8 samples.

Results

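The genes described here are 10 transcripts whose proteins brake the RAS and ERK signalling pathway: the dual-specificity phosphatases DUSP1, DUSP2, DUSP4, DUSP5 and DUSP6, the Sprouty genes SPRY1, SPRY2 and SPRY4, and the Sprouty-related genes SPRED1 and SPRED2. They were chosen by symbol, each matched to a gene identifier through the gene name column of the deposited tables, and are 10 of 63677 identifiers in those tables. RNA was measured by strand-specific sequencing in DND-41 and MOLT-4, established human cell lines of T-cell acute lymphoblastic leukaemia (T-ALL), a cancer of immature T cells. Each line was treated for 8 h with 100 nM ACBI-1 or with DMSO, the solvent, which gave 4 groups of 2 libraries: DND-41 with DMSO, DND-41 with ACBI-1, MOLT-4 with DMSO and MOLT-4 with ACBI-1. ACBI-1 is a bifunctional degrader that recruits the VHL ubiquitin ligase to the bromodomain proteins SMARCA2, SMARCA4 and PBRM1 of the BAF chromatin remodelling complexes. Whether the replicates of a group were separate cultures is not given in the labels, so p-values here measure spread between libraries that may be technical replicates.

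The pathway passes a signal from receptors at the cell surface through the GTPase RAS and the kinases RAF and MEK to the kinase ERK, which enters the nucleus and switches on early response genes. Several of those genes encode its own inhibitors: nuclear phosphatases (DUSP1, DUSP2, DUSP4, DUSP5) and a cytoplasmic phosphatase (DUSP6) remove the activating phosphates from ERK or its relatives, and Sprouty and SPRED proteins act upstream, at the steps from receptor to RAF. For this reason their transcripts are widely used as a readout of pathway output, and in T cells DUSP2, DUSP5 and DUSP6 are known as genes induced by antigen receptor or cytokine signals.

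Promoter sequences are shown for 3 members on which the results turn: DUSP2, which fell in both lines, and DUSP1 and SPRY2, the members called for a difference between the lines in the response to ACBI-1, calls that did not hold in DESeq2, at an adjusted p below 0.01 or without both MOLT-4 replicate 2 libraries. RefSeq entries (GRCh38.p14) were matched for 8 of the 10 members, and stretches that overlap an exon of the member itself are not shown. Each sequence is the 250 bases before a RefSeq start site, written 5′ to 3′ on the gene's own strand, which is the minus strand for all 3: chr5:172771196-172771445 for DUSP1, chr2:96145441-96145690 for DUSP2, where the annotation also places an exon of the non-coding transcript AC012307.1, and chr13:80341127-80341376 for SPRY2, the most upstream of its 3 RefSeq windows. Capitals mark the matched motifs described after the sequences.
DUSP1: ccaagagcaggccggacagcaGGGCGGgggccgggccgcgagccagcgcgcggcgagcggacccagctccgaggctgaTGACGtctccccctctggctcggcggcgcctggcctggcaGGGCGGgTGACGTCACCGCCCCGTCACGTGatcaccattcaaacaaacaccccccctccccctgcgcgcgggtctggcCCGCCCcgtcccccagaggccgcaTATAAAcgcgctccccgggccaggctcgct
DUSP2: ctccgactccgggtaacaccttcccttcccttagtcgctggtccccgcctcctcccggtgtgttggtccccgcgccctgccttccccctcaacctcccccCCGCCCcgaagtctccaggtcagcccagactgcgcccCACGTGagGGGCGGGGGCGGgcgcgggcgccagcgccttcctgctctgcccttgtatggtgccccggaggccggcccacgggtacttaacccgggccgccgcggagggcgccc
SPRY2: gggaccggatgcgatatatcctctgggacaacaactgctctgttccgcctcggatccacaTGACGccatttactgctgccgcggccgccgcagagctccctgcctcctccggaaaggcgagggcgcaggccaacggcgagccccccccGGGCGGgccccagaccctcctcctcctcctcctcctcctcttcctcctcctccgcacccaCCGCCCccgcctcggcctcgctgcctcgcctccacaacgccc
Both strands of the same 250-base window were searched in 35116 promoters for a cAMP response element (TGACGTCA, in 1.65% of promoters), its core (TGACG, in 21.2%), an E-box (CACGTG, in 6.34%), a GC box (GGGCGG, in 42.6%), a TATA box (TATAAA, in 10.7%), an ETS site (CCGGAAG, in 8.52%), an AP-1 site (TGANTCA, in 6.57%), a RUNX site (TGTGGT, in 11%), an RBPJ site (TGGGAA, in 20.8%) and the serum response CArG box (in 1.16%). The DUSP1 window held a complete cAMP response element at bases −125 to −118, counted back from −1 at the base before the start, an E-box at −108 to −103 and a TATA box at −30 to −25. The core TGACG also lies at −172 to −168 and, on the other strand, at −111 to −107, where it overlaps the E-box, and 4 GC boxes are spread over the window. The DUSP2 window held an E-box at −113 to −108 and 3 GC boxes. The SPRY2 window held the core TGACG at −190 to −186 and 2 GC boxes. None of these 3 windows held the ETS, AP-1, RUNX, RBPJ or CArG letters, which says only that those letters are not in these bases.

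Library totals ran from 19860759 to 20239888 counts, and the floor of 3 counts that a count of 0 allows corresponds to 0.137 to 0.165 CPM per library, CPM being counts scaled to the size of the library. T-lineage markers, all but PTCRA detected in every group, summed to 4929 to 5024 CPM in DND-41 with DMSO and 5112 to 5419 with ACBI-1, and to 3393 to 3511 and 2836 to 2854 in MOLT-4. Of these markers 3 of 9 tested rose and 6 fell in DND-41 (median log2 fold change −0.54), where CD3G and CD3E rose and CD7 and ZAP70 fell, and 1 of 10 rose and 7 fell in MOLT-4 (median −1.0). Of all tested genes, 20% were called higher and 23.2% lower in DND-41, and 20.7% higher and 24.4% lower in MOLT-4. Myeloid and erythroid markers summed to at most 0.771 CPM, and the defining B-cell genes MS4A1 and PAX5 were at 0 in all 8 libraries, although CD79A stood at 1568 and 1586 CPM in the DND-41 DMSO libraries. MOLT-4 replicate 2 libraries held stromal transcripts that their replicate 1 libraries nearly lacked: COL1A1 had 42 and 1115 counts with DMSO and 0 and 207 with ACBI-1. The summed stromal and epithelial markers were at most 0.19 CPM in DND-41. Of the epithelial markers, EPCAM was at 0 in every library and KRT18 had 27 counts over all 8 libraries. KRT8 was at 1.52 and 2.43 CPM in MOLT-4 with DMSO and at 0.688 and 0.991 with ACBI-1. The share of mitochondrial counts was 11.77% to 15.52% in DND-41, and in MOLT-4 it was 19% and 14.43% with DMSO against 21.3% and 24.63% with ACBI-1. The part of the marker sums, mitochondrial shares and stromal counts in the results was not tested beyond the values given without both replicate 2 libraries. In bulk RNA of this kind, fewer cells that hold a transcript and less of it per cell cannot be told apart.

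In solvent-treated cells the lines differed in the RNA level of several members. DND-41 carried DUSP6 far above the rest, whereas MOLT-4 had little DUSP6 and carried DUSP2 and SPRED2 at its top. SPRED2 was high in both lines, at 18.5 CPM per kilobase of annotated exon in DND-41 and 13.4 in MOLT-4. DUSP4, SPRY4 and SPRED1 entered the fit over all genes through the MOLT-4 libraries alone, so they are left out here. Of the other members, DUSP1, DUSP2 and SPRY1 were higher in MOLT-4 with DMSO than in DND-41 with DMSO. DUSP6, SPRY2 and SPRED2 were lower, and DUSP5 was not called. Of all 15498 genes tested, 63.8% were called at an adjusted p below 0.05 (33.2% higher, 30.7% lower). Among the same members, DUSP6, SPRY1 and SPRY2 were at least 2-fold apart, as were 26% of all genes (13.8% higher, 12.2% lower). DUSP6, the cytoplasmic phosphatase selective for ERK, had 524 and 548 CPM in the DND-41 DMSO libraries and 14.02 and 11.8 CPM in the MOLT-4 DMSO libraries. The groups lay far apart, with a log2 difference of −5.38 ± 0.09 (SE, 2 libraries against 2, adjusted p = 2.56e-19), or 41.5-fold lower in MOLT-4. Ranked among all genes with a count, DUSP6 was at place 192 of 23571 in DND-41 and at 8221 of 24556 in MOLT-4.

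**Figure D1:**
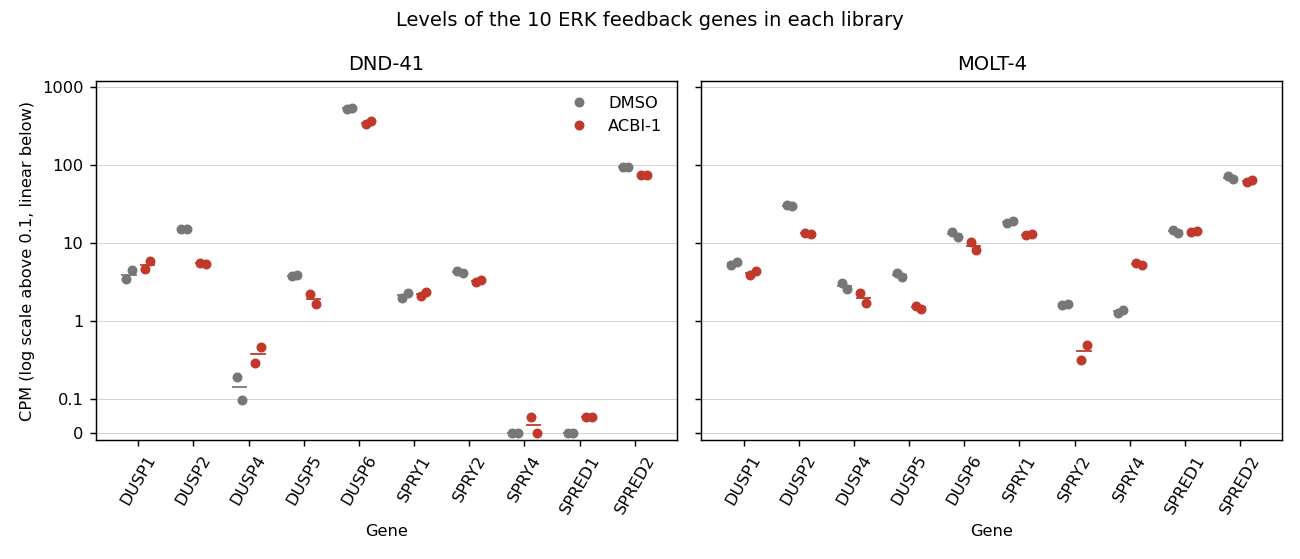
Level of each of the 10 genes in every library, as CPM on an axis that is logarithmic above 0.1 and linear below it, for DND-41 on the left and MOLT-4 on the right; points are libraries, short lines are group means, grey is DMSO and red is ACBI-1. DUSP6 stands at 336 to 548 CPM in DND-41 and at 8.09 to 14.02 in MOLT-4, and SPRY4 and SPRED1 are at or below 1 count in every DND-41 library.

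SPRED1 and SPRY4 went the other way. SPRED1, a membrane-bound inhibitor that recruits the RAS GTPase-activating protein NF1, had 278 and 272 counts in MOLT-4 with DMSO and 0 and 0 in DND-41 with DMSO. SPRY4, a Sprouty protein that blocks RAF activation, had 24 and 28 counts in MOLT-4 and 0 and 0 in DND-41. Taking 3 counts over the DND-41 group as the floor, SPRED1 was at least 195-fold higher in MOLT-4 and SPRY4 at least 18.5-fold higher. Both entered the fit over all genes through the MOLT-4 libraries alone, as did DUSP4, so their place among the called members had to follow.

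DUSP4, a nuclear phosphatase, had 4 and 2 counts in DND-41 with DMSO and 58 and 51 in MOLT-4. The ratio of its summed counts was 19.4, with a 95% counting interval of 8.62 to 53.9. Its p-value is left out, as DUSP4 too entered the fit through MOLT-4 alone. SPRY1 was also low in DND-41, at 1.99 and 2.27 CPM, against 18.2 and 19.0 CPM in MOLT-4 (3.12 ± 0.14, adjusted p = 2.49e-13). DUSP2, an inducible nuclear phosphatase of activated lymphocytes, was at 15.2 and 14.9 CPM in DND-41 and 30.3 and 29.8 in MOLT-4 (0.99 ± 0.08, adjusted p = 4.63e-09). These 3 genes thus stood higher in MOLT-4 in both libraries of the pair. SPRY2 was lower in MOLT-4, with 1.57 and 1.64 CPM against 4.36 and 4.16 in DND-41 (−1.40 ± 0.21, adjusted p = 1.25e-05). SPRED2, which like SPRED1 acts with NF1 on RAS, was lower as well, at 71.4 and 66.8 CPM against 95.3 in each DND-41 library (−0.46 ± 0.06, adjusted p = 1.10e-06). DUSP5, the nuclear phosphatase selective for ERK, had overlapping values of 3.75 and 3.87 CPM in DND-41 and 4.09 and 3.63 in MOLT-4, with a difference of 0.02 ± 0.19 (adjusted p = 0.936).

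DUSP1, a stress- and mitogen-induced nuclear phosphatase, had 3.42 and 4.45 CPM in DND-41 with DMSO and 5.25 and 5.76 in MOLT-4, a log2 difference of 0.49 ± 0.18 (adjusted p = 0.0235). That call was lost when DND-41 DMSO replicate 1 was left out (0.31, p 0.219 after adjustment) and likewise for MOLT-4 DMSO replicate 2 (0.43, p 0.114) or the pair of MOLT-4 replicate 2 libraries (0.43, p 0.136). It was also lost when libraries were scaled by size only (0.39, p 0.0774) and in DESeq2 (0.48, p 0.192). Scaling by size only also moved the split of all calls between the lines from 5139 higher and 4753 lower to 4148 higher and 5504 lower.

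Per kilobase of annotated exon, which allows genes to be set beside each other, the order in DND-41 with DMSO was DUSP6 at 116 ± 3.62 CPM per kb (SD, n = 2), SPRED2 at 18.5 ± 0.00814, DUSP2 at 7.81 ± 0.110 and DUSP1 at 1.95 ± 0.360. Below these came DUSP5 at 1.46 ± 0.0317 and SPRY2 at 1.40 ± 0.0488, whose libraries overlapped, then SPRY1 at 0.538 ± 0.0496 and DUSP4 at 0.0197 ± 0.00908. In MOLT-4 with DMSO the order was DUSP2 at 15.6 ± 0.175, SPRED2 at 13.4 ± 0.626 and SPRY1 at 4.70 ± 0.145. DUSP6 at 2.79 ± 0.334 and DUSP1 at 2.73 ± 0.180 overlapped in MOLT-4, and SPRED1, DUSP5, SPRY2, DUSP4 and SPRY4 followed in that order from 1.70 down to 0.202 CPM per kb without overlap between neighbours. DUSP6 alone made up 78.5% ± 0.377 of the 10 genes' summed per-length level in DND-41 with DMSO and 6.41% ± 0.615 in MOLT-4 with DMSO.

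**Figure D2:**
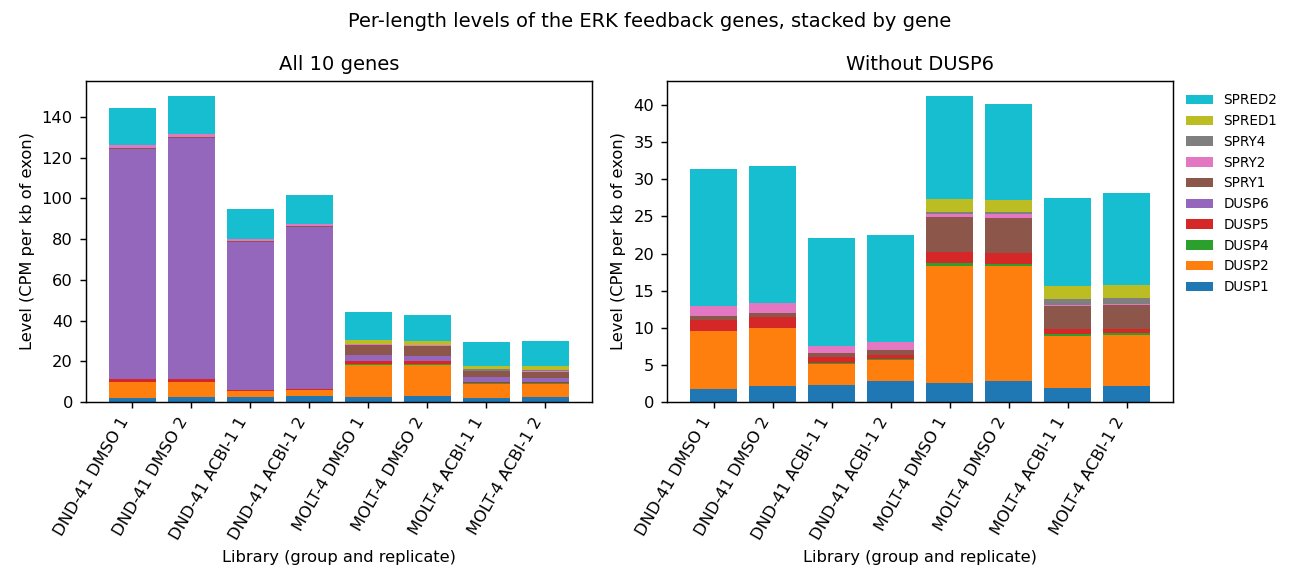
Stacked per-length levels (CPM per kb of exon) of the 10 genes in each of the 8 libraries, on the left for all genes and on the right without DUSP6; each bar is a library and each colour a gene. DUSP6 fills most of the DND-41 bars, and without it the 2 lines' DMSO bars come to 31.5 and 31.9 in DND-41 and 41.2 and 40.2 in MOLT-4.

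With ACBI-1, the members that passed the test in DND-41 were lower in every case, and those in MOLT-4 were lower with the exception of SPRY4. In DND-41, 4 of the 7 members that could be tested fell (DUSP2, DUSP5, DUSP6 and SPRED2) and none rose, where 43.2% of 14008 tested genes were called (20% higher, 23.2% lower). In MOLT-4 all 10 members passed the filter on low counts. Of these, DUSP1, DUSP2, DUSP5, DUSP6 and SPRY1 fell and SPRY4 rose, where 45.1% of 14239 tested genes were called (20.7% higher, 24.4% lower). SPRY2 was also called lower there, but it passed that filter through its DMSO libraries only, so its direction had to follow. The median log2 fold change of the tested members was −0.38 in DND-41 and −0.49 in MOLT-4, against 0.01 and 0.00 over all tested genes. SPRY2 is included in the MOLT-4 median. A change of at least 2-fold was called for DUSP2 in DND-41, as for 8.4% of genes (1.98% higher, 6.41% lower). In MOLT-4 it was called for DUSP2, DUSP5 and SPRY4, as for 10.4% of genes (1.97% higher, 8.43% lower), and for SPRY2 with the limit of that filter. The share of members called, though above that of all genes in both lines, rests on few genes, in MOLT-4 with SPRY2 among them, and no test of the list was made. Scaled by library size only, the split of MOLT-4 calls over all genes went from 2948 higher and 3477 lower to 1781 higher and 3922 lower.

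**Figure D3:**
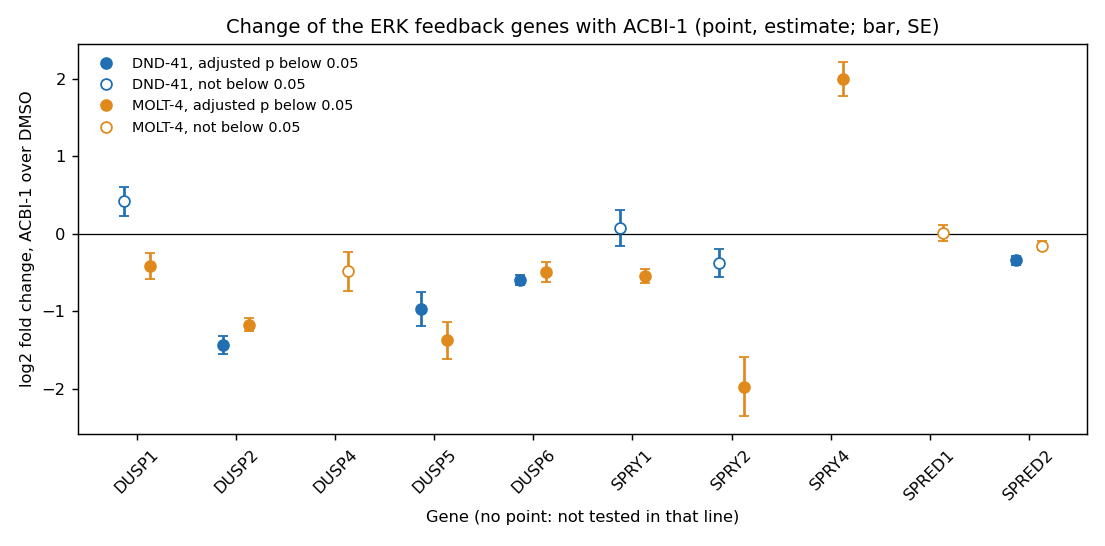
log2 fold change with ACBI-1 over DMSO for each gene, with blue for DND-41 and orange for MOLT-4; points are estimates over 2 libraries against 2, bars are SE, and filled points have an adjusted p below 0.05. DUSP2 and DUSP5 lie near or below −1 in both lines, SPRY4 is at 2.0 in MOLT-4, and DUSP1 is on opposite sides of 0 in the 2 lines. The filled SPRY2 point in MOLT-4 is limited, as SPRY2 passed the filter on low counts there through its DMSO libraries only.

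Of the nuclear phosphatases, DUSP2 and DUSP5 fell in both lines. DUSP2 went from 15.2 and 14.9 CPM with DMSO to 5.55 and 5.44 with ACBI-1 in DND-41, and from 30.3 and 29.8 to 13.5 and 13.2 in MOLT-4. Treated and control libraries did not overlap in either line, and the replicates were within a few percent of each other. The log2 fold changes were −1.44 ± 0.12 (adjusted p = 1.58e-07) in DND-41 and −1.18 ± 0.08 (adjusted p = 8.39e-10) in MOLT-4, 2.72-fold and 2.26-fold lower. DUSP5 went from 3.75 and 3.87 CPM to 2.20 and 1.64 in DND-41, and from 4.09 and 3.63 to 1.53 and 1.43 in MOLT-4. Its treated libraries were below both controls in each line, with −0.97 ± 0.22 (adjusted p = 0.00247) and −1.38 ± 0.24 (adjusted p = 8.89e-05). The pseudogene DUSP5P1 had 2 to 8 counts in DND-41 libraries and 23 to 51 in MOLT-4, where DUSP5 itself had 26 to 78, so reads shared between the pair could bear on the DUSP5 level in MOLT-4. DUSP5P1 moved in the opposite direction there, from 26 and 23 counts with DMSO to 44 and 51 with ACBI-1.

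DUSP1 and DUSP4 gave weaker or opposed values. DUSP1 had 3.42 and 4.45 CPM with DMSO and 4.59 and 5.80 with ACBI-1 in DND-41, and 5.25 and 5.76 with DMSO and 3.86 and 4.40 with ACBI-1 in MOLT-4. Its treated libraries were thus above both controls in DND-41 and below both in MOLT-4. In DND-41 the log2 fold change of 0.42 ± 0.19 did not pass (adjusted p = 0.0871), although it passed when ACBI-1 replicate 1 (0.57, p 0.00969 after adjustment) or DMSO replicate 2 (0.62, p 0.0372) was dropped from the fit. In MOLT-4 it was −0.42 ± 0.17 and close to the threshold (adjusted p = 0.0463). In MOLT-4, dropping ACBI-1 replicate 1 (−0.32, p 0.247 after adjustment), DMSO replicate 1 (−0.48, p 0.0540), DMSO replicate 2 (−0.34, p 0.210) or the pair of replicate 2 libraries (−0.45, p 0.286) lost the call. So did an unfiltered table (−0.41, p 0.0519), a joint fit of the 8 libraries (−0.42, p 0.0784) and DESeq2 (−0.41, p 0.381). DUSP4 was too low to test in DND-41, where it had 4 and 2 counts with DMSO and 6 and 10 with ACBI-1, a ratio of 2.60 with a 95% counting interval of 0.968 to 8.12. In MOLT-4 it had 58 and 51 counts with DMSO and 43 and 31 with ACBI-1, and −0.48 ± 0.25 did not pass (adjusted p = 0.126).

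DUSP6 fell in both lines in spite of the wide gap in its level. It went from 524 and 548 CPM with DMSO to 336 and 368 with ACBI-1 in DND-41 and from 14.02 and 11.8 to 10.3 and 8.09 in MOLT-4. The groups did not overlap in either line, although the MOLT-4 libraries spread from 11.8 to 14.02 CPM with DMSO and from 8.09 to 10.3 with ACBI-1. The log2 fold change was −0.59 ± 0.06 (adjusted p = 3.06e-06) in DND-41 and −0.49 ± 0.13 (adjusted p = 0.00402) in MOLT-4. With DESeq2 the MOLT-4 call ended (−0.49, adjusted p = 0.0851), and in the authors' deposited table its adjusted p was 0.0847. Even after the fall, DUSP6 in DND-41 with ACBI-1 held place 329 of 23533 genes with a count. It still made up 77.3% ± 0.921 of the members' summed per-length level.

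Among the Sprouty genes, which inhibit signalling between receptors and RAF, the MOLT-4 members moved in both directions. SPRY4 rose from 1.26 and 1.39 CPM with DMSO to 5.45 and 5.23 with ACBI-1 in MOLT-4, which was 24 and 28 counts against 103 and 95. The 2 groups were well separated, with a log2 fold change of 2.0 ± 0.22 (adjusted p = 4.80e-07), and without both replicate 2 libraries it was 2.10 (adjusted p = 0.00189). In DND-41 SPRY4 had 0 and 0 counts with DMSO and 1 and 0 with ACBI-1, so no change was detectable at this depth.

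SPRY2 fell in MOLT-4, from 30 and 33 counts with DMSO to 6 and 9 with ACBI-1. The groups did not overlap, and the ratio of summed counts was 0.252 with a 95% counting interval of 0.133 to 0.447. The log2 fold change of −1.98 ± 0.38 is given without a p-value, as SPRY2 passed the filter in MOLT-4 through its DMSO libraries only. In DND-41 the SPRY2 libraries had 92 and 86 counts with DMSO and 66 and 73 with ACBI-1, all lower after treatment, but −0.38 ± 0.18 did not pass (adjusted p = 0.108). SPRY1 fell in MOLT-4 from 18.2 and 19.0 CPM to 12.5 and 13.1, again without overlap (−0.55 ± 0.10, adjusted p = 1.11e-04). In DND-41 SPRY1 had 1.99 and 2.27 CPM with DMSO and 2.06 and 2.38 with ACBI-1, which overlapped (0.07 ± 0.24, adjusted p = 0.836). Its sign there turned when ACBI-1 replicate 2 (−0.038) or DMSO replicate 1 (−0.027) was left out.

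The SPRED genes, which brake RAS through NF1, moved little. SPRED2, the second highest member in DND-41, went from 95.3 and 95.3 CPM with DMSO to 74.9 and 74.1 with ACBI-1. The groups were well apart and the replicates close, and it fell by 0.34 ± 0.06 on the log2 scale (adjusted p = 3.37e-04), 1.27-fold. In MOLT-4 it had 71.4 and 66.8 CPM with DMSO and 61.1 and 63.7 with ACBI-1, and −0.15 ± 0.06 did not pass (adjusted p = 0.0581). It did pass in MOLT-4 when DMSO replicate 2 was dropped (−0.19, p 0.0209 after adjustment), when libraries were scaled by size only (−0.23, p 0.0247) and at a minimum count of 50 (−0.16, p 0.0350). SPRED1 had 14.6 and 13.5 CPM with DMSO and 14.03 and 14.4 with ACBI-1 in MOLT-4, which overlapped. Its log2 fold change was 0.01 ± 0.10 (adjusted p = 0.940), and the ratio of summed counts had a 95% counting interval of 0.895 to 1.14. In DND-41 it had 0 and 0 counts with DMSO and 1 and 1 with ACBI-1, below the floor of 3 counts per library.

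The difference between the lines in the response to ACBI-1 was tested as an interaction term in a fit of the 8 libraries, which are those of the comparisons within a line. Of the members, 2 passed, where 13.3% of 15498 tested genes were called (7.18% higher in MOLT-4, 6.17% lower): DUSP1 with −0.82 ± 0.25 (adjusted p = 0.0383) and SPRY2 with −1.58 ± 0.40 (adjusted p = 0.0119), both as MOLT-4 minus DND-41. For DUSP1 the treated libraries lay above the controls in DND-41 and below them in MOLT-4, and for SPRY2 they lay below in both lines but further below in MOLT-4. Neither call held with DESeq2 (−0.83, adjusted p = 0.246 for DUSP1 and −1.60, adjusted p = 0.104 for SPRY2) or without both MOLT-4 replicate 2 libraries (−0.87, adjusted p = 0.174 and −1.92, adjusted p = 0.0756). Left out in turn, DND-41 ACBI-1 replicate 2 (−0.64, adjusted p = 0.132), DND-41 DMSO replicate 1 (−0.64, adjusted p = 0.174), MOLT-4 ACBI-1 replicate 1 (−0.72, adjusted p = 0.145) and replicate 2 (−0.91, adjusted p = 0.0600), and MOLT-4 DMSO replicate 1 (−0.88, adjusted p = 0.0532) and replicate 2 (−0.77, adjusted p = 0.115) each ended the DUSP1 call. For SPRY2, leaving out MOLT-4 ACBI-1 replicate 1 ended it (−1.29, adjusted p = 0.101). At 2-fold or more SPRY2 was the only member called for the difference, as were 2.9% of genes (1.06% higher, 1.85% lower).

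For DUSP2 the difference was 0.28 ± 0.14 (adjusted p = 0.208), for DUSP5 −0.39 ± 0.31 (adjusted p = 0.50), for DUSP6 0.12 ± 0.14 (adjusted p = 0.676), and for SPRED2 0.21 ± 0.08 (adjusted p = 0.114). SPRY1, called in MOLT-4 and not in DND-41, had a difference of −0.60 ± 0.22 that did not pass (adjusted p = 0.0843). DUSP4 had a difference of −1.82, from 2 to 10 counts in each DND-41 library. Its SE and p-value are left out, as it entered this fit through the MOLT-4 libraries alone. No difference is given for SPRY4 and SPRED1, which were at or below 1 count in every DND-41 library. Of the differences given here with a p-value, none passed after adjustment over all 15498 genes. Those of SPRY1, DUSP2 and SPRED2 were each over 2 times their SE, so the values do not show that the lines respond alike.

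Summed over the 10 genes, the per-length level went from 147 ± 3.90 CPM per kb (SD, n = 2) with DMSO to 98.3 ± 5.03 with ACBI-1 in DND-41, and from 43.5 ± 1.05 to 29.8 ± 0.167 in MOLT-4. Without DUSP6 the sums were 31.7 ± 0.282 and 22.3 ± 0.236 in DND-41 and 40.7 ± 0.716 and 27.8 ± 0.499 in MOLT-4. The treated libraries were below the controls in each of these sums. The make-up of the MOLT-4 sum also shifted: DUSP2 made up 35.8% ± 0.462 of it with DMSO and 23.2% ± 0.545 with ACBI-1, SPRED2 30.8% ± 0.696 and 40.7% ± 0.981, and SPRY4 0.465% ± 0.0438 and 2.73% ± 0.0953. In MOLT-4 with ACBI-1, SPRED2 at 12.1 ± 0.360 CPM per kb had taken the top place from DUSP2 at 6.90 ± 0.124.

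The rest of the family was given by a list of 7 genes: the cytoplasmic ERK phosphatases DUSP7 and DUSP9, the JNK and p38 phosphatases DUSP8, DUSP10 and DUSP16, and SPRY3 and SPRED3. In DND-41 1 of the 4 tested fell and none rose, with a median log2 fold change of 0.14, and in MOLT-4 2 of the 3 tested fell and none rose, with a median of −0.51. Of all tested genes, 23.2% were called lower in DND-41 (43.2% called) and 24.4% in MOLT-4 (45.1% called). DUSP7, the closest relative of DUSP6 in substrate and location, went from 72.3 and 70.0 CPM to 32.1 and 33.2 in DND-41 and from 108 and 105 to 75.9 and 74.0 in MOLT-4. It fell in both lines without overlap, by 1.11 ± 0.07 (adjusted p = 7.89e-09) and by 0.51 ± 0.05 (adjusted p = 2.31e-07) on the log2 scale. DUSP16 fell in MOLT-4 from 22.5 and 22.8 CPM to 13.9 and 13.7 (−0.72 ± 0.09, adjusted p = 1.74e-06), whereas in DND-41 it had 1.90 and 1.84 CPM with DMSO and 2.44 and 2.60 with ACBI-1 (0.45 ± 0.23, adjusted p = 0.135). SPRY3 had at most 1 count in any library.

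Around these brakes, the lists of pathway genes held calls in both directions. Their counts stand beside the shares of all tested genes, which were 20% higher and 23.2% lower (43.2% called) in DND-41 and 20.7% higher and 24.4% lower (45.1% called) in MOLT-4, and no list was tested as a whole. Of the genes that activate RAS, 2 of 15 tested rose and 8 fell in DND-41, and 1 of 13 rose and 7 fell in MOLT-4, with medians of −0.27 and −0.20. RRAS2, a RAS-related GTPase, fell by 0.85 ± 0.07 and 1.03 ± 0.11 on the log2 scale in DND-41 and MOLT-4, and SOS1, an exchange factor that loads RAS with GTP, rose by 0.37 ± 0.07 and 0.55 ± 0.06. RASGRP2, a calcium-regulated exchange factor for the RAS relative RAP1, fell in MOLT-4 by 2.86 ± 0.11, from 31.4 and 34.3 CPM to 4.60 and 4.46. Of the RAF, MEK and ERK kinases and their scaffolds, 2 of 12 rose and 3 fell in DND-41, and 4 of 13 rose and 3 fell in MOLT-4, with medians of −0.07 and 0.08, a share called close to that of all genes. The scaffold IQGAP1 fell by 1.011 ± 0.06 and 0.90 ± 0.06, and the ERK-binding protein PEA15 by 0.71 ± 0.06 and 0.85 ± 0.08.

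Of other inhibitors of RAS and ERK, 1 of 14 tested rose and 9 fell in DND-41, and 2 of 15 rose and 10 fell in MOLT-4, with medians of −0.33 and −0.22, where 23.2% and 24.4% of all genes were lower. The RAS GTPase-activating protein RASAL3 went from 130 and 139 CPM to 35.9 and 37.8 in DND-41 and from 36.9 and 37.8 to 4.66 and 4.62 in MOLT-4, and the adaptor SH2B3, which restrains cytokine receptor signals, fell by 1.36 ± 0.07 and 1.32 ± 0.08 on the log2 scale. Both were below their controls in every treated library. In the other direction, the ubiquitin ligase CBLB rose by 0.51 ± 0.08 and 0.42 ± 0.07, and RASA3, a further RAS GTPase-activating protein, rose in MOLT-4 by 1.30 ± 0.06 and fell in DND-41 by 0.42 ± 0.07.

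ERK-induced transcripts outside the family split as well, with 4 of 14 tested higher and 6 lower in DND-41 and 4 of 13 higher and 7 lower in MOLT-4, and medians of −0.23 and −0.36. The shares of all genes were 20% higher and 23.2% lower in DND-41 and 20.7% higher and 24.4% lower in MOLT-4. EGR1, an early response transcription factor, went from 34.5 and 36.6 CPM with DMSO to 253 and 270 with ACBI-1 in DND-41, and from 46.2 and 33.4 to 102 and 64.2 in MOLT-4. EGR2 rose too, by 2.29 ± 0.18 and 2.55 ± 0.27 on the log2 scale. IER3, another early response gene, fell by 1.83 ± 0.25 and 1.16 ± 0.16, and the ETS factor ETV5 fell in MOLT-4 by 1.13 ± 0.12 and rose in DND-41 by 0.54 ± 0.07. So EGR1 and EGR2 rose in the same libraries in which DUSP2, DUSP5 and DUSP6 fell. The transcription factors and kinases that ERK activates were 6 higher and 6 lower of 15 in DND-41 and 5 and 5 of 15 in MOLT-4, and the p38, JNK and ERK5 kinases were 1 higher and 5 lower of 12 and 3 and 3 of 12.

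**Figure D4:**
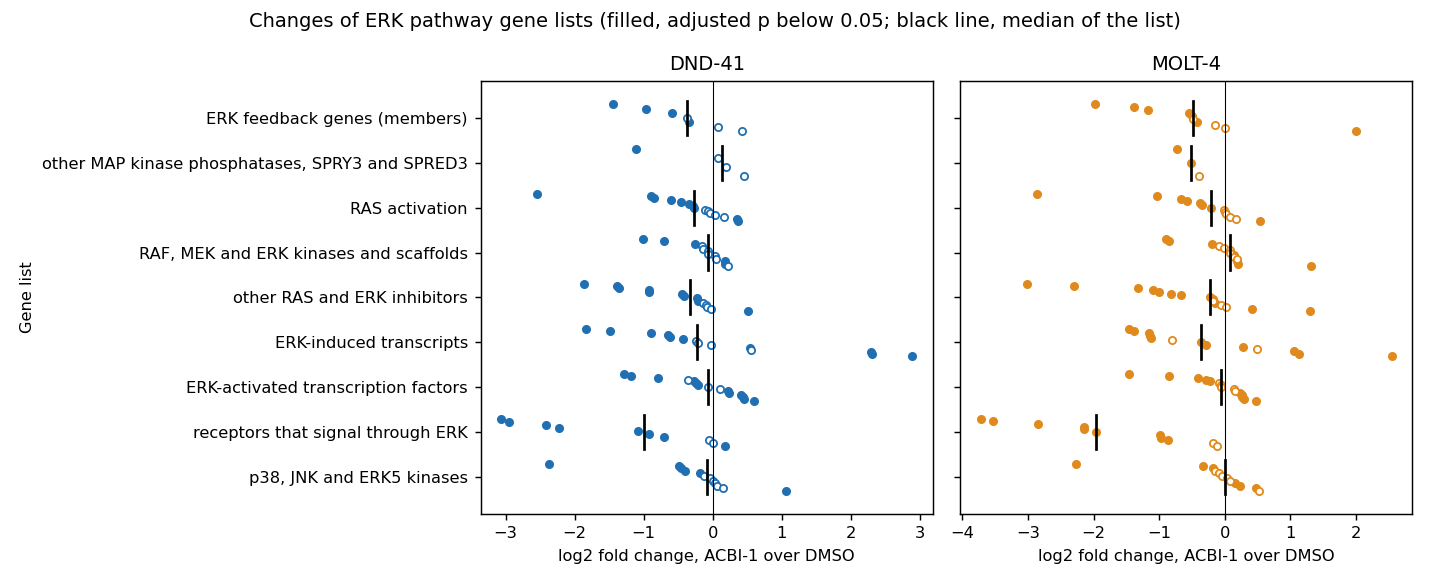
log2 fold change with ACBI-1 over DMSO of every tested gene in 9 gene lists of the ERK pathway, in DND-41 on the left and MOLT-4 on the right; each point is a gene, filled points have an adjusted p below 0.05, and black lines are list medians. The receptors have the lowest medians, −1.0 in DND-41 and −1.96 in MOLT-4, and the feedback genes stand at −0.38 and −0.49.

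The receptors that feed the pathway had the lowest medians of the 9 lists plotted, at −1.0 in DND-41, where 1 of 10 tested rose and 7 fell, and at −1.96 in MOLT-4, where none of 11 rose and 9 fell. Of all genes, 23.2% were lower in DND-41 and 24.4% in MOLT-4. The chemokine receptor CXCR4 fell in DND-41 from 220 and 203 CPM to 27.9 and 26.1, and also in MOLT-4 (log2 fold change −2.14 ± 0.06). The growth factor receptor FGFR1 fell in MOLT-4 from 174 and 171 CPM to 13.7 and 12.5, and also in DND-41 (−2.23 ± 0.11). The thymic chemokine receptor CCR9 fell in MOLT-4 from 85.8 and 93.4 CPM to 8.26 and 7.32, and from a lower level in DND-41 (−1.08 ± 0.27).

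The genes most alike to a member over the 8 libraries were looked up for DUSP2, DUSP6 and SPRY1, by Pearson's r of log2 CPM among 2560 genes, as a description in which all points share the same libraries and line accounts for much of the spread. For DUSP2 they included LAPTM5 (r = 0.999) and MYH9 (r = 0.998). For DUSP6 they included ACSL5 and SOCS2, a feedback inhibitor of cytokine receptors, both at r = 0.999. For SPRY1 they were DNAH17 (r = 0.9996), PXDN and FAM149A (each r = 0.999). As group means, LAPTM5 in DND-41 stood at 87.97 CPM in solvent and 33.9 CPM after ACBI-1, and in MOLT-4 at 169.9 and 81.4. SOCS2 in DND-41 had 136 CPM in solvent and 85.4 CPM after ACBI-1, and it stood at 1.26 and 0.538 in MOLT-4.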

How the data were processed

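RNA of 8 libraries (2 lines, 2 treatments, 2 libraries a group) was analysed from the deposited tables. Per the submitters' processing notes, STAR 2.5.2a, featureCounts, DESeq2 1.12.4 and the hg19 build were used by the authors; of the annotation, strand setting and read filters, details were not given in the sources used here. Counts were deposited per gene as whole numbers with no normalization, per the file headers. Separate tables by the authors give a log2 fold change and its error, p-values, and columns treated here as a score (the mean level and the test statistic). Their MOLT-4 log2 fold changes have the opposite sign (0% of 6425 genes called here had the same sign, against 100% of 6056 in DND-41), so only their adjusted p is quoted. No column was left unmapped (0).

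Counts were tested with edgeR 4.0.16 in R 4.3.3: filterByExpr at a minimum count of 10, TMM scaling, the quasi-likelihood F test and Benjamini-Hochberg adjustment over all genes tested, called at an adjusted p below 0.05. Each line was fitted by itself with treatment as the only term; the difference between lines and the DMSO comparison came from all 8 libraries. The SE was taken as |log2 fold change| over √F. CPM use TMM effective library sizes, and per-length levels divide by exon length in GENCODE 29, matched by gene identifier. Counting intervals are exact at 95% and, like the floor of 3 counts, cover counting error only.

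The members and the 14 gene lists were chosen with earlier results of these data known. The text names all members, and from each other list and line at most 2 called genes in each direction, taken by lowest adjusted p; the other line's value may stand beside them. Likeness was computed for the 3 members above a mean of 5 CPM with the largest change. Alternatives were a joint fit of 8 libraries (or the 4 DMSO libraries by themselves), a replicate block, DESeq2 1.42.0 or its size factors, scaling by library size, an unfiltered table, a minimum count of 50, a threshold of 0.01, a 2-fold minimum, and leaving out each library, in which case a group's only library is taken to vary as the other groups do. Leaving out both MOLT-4 replicate 2 libraries was chosen after seeing the data. Some genes that the naming rule selected are not reported here. The scripts were tested on simulated data; tables used Python 3.11.15, numpy 2.4.6 and pandas 2.3.3.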

Additional observations from a re-analysis of the deposited data

Results flagged for a closer look

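The response to ACBI-1 differed between the lines by the interaction test for DUSP1, at −0.82 ± 0.25 on the log2 scale as MOLT-4 minus DND-41 (adjusted p = 0.0383), and for SPRY2, at −1.58 ± 0.40 (adjusted p = 0.0119). In the wider family it differed for DUSP16, at −1.15 ± 0.21 (adjusted p = 8.42e-04), which was −0.72 in MOLT-4 and 0.45 in DND-41, and for DUSP7, at 0.61 ± 0.08 (adjusted p = 4.08e-05), which fell in both lines and by more in DND-41. Without both MOLT-4 replicate 2 libraries DUSP16 was at −1.15 (adjusted p = 0.0134) and DUSP7 at 0.59 (adjusted p = 0.00497), and both passed in each of the 8 fits that lacked 1 library. The DUSP1 and SPRY2 calls were less stable: neither held in DESeq2 (adjusted p = 0.246 and 0.104) or without both MOLT-4 replicate 2 libraries (adjusted p = 0.174 and 0.0756), and DUSP1 was lost in 6 of the 8 fits that lacked 1 library and SPRY2 in 1.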

How the results depend on the processing

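Of the members' values under the alternatives, 453 kept their direction and their side of the threshold, 38 lost a call, 7 gained one and 11 changed sign; of the values of the other named genes, 695 kept both and 55 lost a call. The sign changes were SPRED1 in MOLT-4 with library size alone (−0.068), without both MOLT-4 replicate 2 libraries (−0.070) and without MOLT-4 DMSO replicate 2 (−0.038, and up to 0.072 with another library left out); SPRY1 in DND-41 (−0.038 and −0.027 without ACBI-1 replicate 2 or DMSO replicate 1); DUSP6 for the difference between lines (−0.0038 with library size alone, −0.058 without MOLT-4 ACBI-1 replicate 1 and −0.022 without MOLT-4 DMSO replicate 2, up to 0.28 with others left out); and DUSP5 between lines under DMSO (−0.085 with library size alone, −0.0056 without DND-41 DMSO replicate 1 and −0.070 without MOLT-4 DMSO replicate 1, up to 0.12 with others left out). None of these 4 results had passed the test.

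Requiring at least 2-fold left 1176 of 6056 genes and 1 of 4 members in DND-41, and 1481 of 6425 genes and 4 of 7 members in MOLT-4. Both MOLT-4 member counts include SPRY2, which passed the filter on low counts there through its DMSO libraries only. The same rule left 450 of 2068 genes and 1 of 2 members for the difference, and 4026 of 9892 genes between lines under DMSO. DESeq2 called 4032 genes in MOLT-4 and, for the difference, 1291 genes and 0 members. Without both MOLT-4 replicate 2 libraries, 3589 genes were called in MOLT-4, and 944 genes and 0 members for the difference. A threshold of 0.01 left 1178 genes and 0 members for the difference. Leaving out each library in turn gave 1367 to 2196 genes and 0 to 2 members for the difference. Library size alone moved the median of all genes for the difference to −0.12 from 0.00 and its calls from 1112 higher and 956 lower to 499 and 1411. It gave summed member levels of 689.8 and 478 CPM in DND-41 with DMSO and ACBI-1, against 660.8 and 445, and 115 against 125 CPM in MOLT-4 with ACBI-1. The cause of these changes was not tested, apart from the rules that ask for more.

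With replicate number as a block, 6876 genes and 5 members were called in DND-41 and 6920 genes and 8 members in MOLT-4, SPRY2 again counted there with the limit of the filter. The added members were DUSP1 in DND-41 (0.42, adjusted p = 0.0419) and SPRED2 in MOLT-4 (−0.15, adjusted p = 0.0307). Deviations of same-numbered libraries correlated at 0.168 in DND-41 and 0.269 in MOLT-4, over 2 pairs a line. Both MOLT-4 replicate 2 libraries also hold COL1A1 counts (1115 and 207) that the replicate 1 libraries nearly lack (42 and 0). The labels do not say what a replicate number stands for, and whether same-numbered libraries share a source was not tested. At this depth the DND-41 values of SPRY4, SPRED1 and DUSP4 and the MOLT-4 value of SPRY2 with ACBI-1 rest on few counts.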

Other observations

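Several further family genes were chosen after their values were seen. DUSP3, an atypical phosphatase of ERK and JNK, had 523 and 571 counts in MOLT-4 with DMSO and 0 and 2 in DND-41 with DMSO, and DUSP23 had 99 and 87 counts in MOLT-4 and 0 in every DND-41 library. DUSP9, a cytoplasmic ERK phosphatase, had 7 and 12 counts in DND-41 with DMSO, 1 and 0 with ACBI-1 and 0 in MOLT-4. The ratio of summed DUSP9 counts with ACBI-1 to DMSO was 0.0514, with a 95% counting interval of 0.00124 to 0.323. DUSP14, an atypical phosphatase of T-cell receptor signalling, rose in both lines, from 380 and 329 counts to 472 and 448 in DND-41 (0.36 ± 0.10, adjusted p = 0.00776) and from 732 and 759 to 1016 and 958 in MOLT-4 (0.48 ± 0.07, adjusted p = 1.05e-05).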
